A study of Homo sapiens with 12 samples.

Results

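The genes that encode translation initiation factors were followed in 2 human pancreatic carcinoma lines. They were taken as the rows of the count table whose Ensembl identifier maps to a protein-coding symbol beginning with EIF and a digit from 1 to 6. EIF4EBP1 and Y-linked genes were left out. This gave 54 genes of 63677 rows, and 49 of the 54 had enough reads to be tested. The rule itself uses names and gene type.

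The libraries were made from PANC-1 and MIA PaCa-2, established lines of human pancreatic carcinoma. Each line was transfected with a mixture of 2 siRNAs that target RBM3, which encodes an RNA-binding protein induced by cold and reported to promote translation, or with a negative control siRNA. The 4 groups, each of 3 libraries, were PANC-1 with RBM3 siRNA (replicates 1, 2 and 3), PANC-1 with control siRNA (1, 2 and 4), MIA PaCa-2 with RBM3 siRNA (1, 2 and 5) and MIA PaCa-2 with control siRNA (1, 2 and 4). All groups received lipofectamine with 25 nM siRNA for 4.5 h in medium without serum after 72 h of culture, and were collected after recovery overnight, per the labels' protocols. The labels name both total and cytoplasmic RNA as the material, and 2 growth media that they do not tie to a line. The study compared the transcriptomes of these lines with and without knockdown of RBM3.

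Translation starts when eIF2, carrying GTP and the initiator tRNA, joins the small ribosomal subunit together with eIF1, eIF1A, eIF3 and eIF5. The eIF4F complex, made of the cap-binding protein eIF4E, the helicase eIF4A and the scaffold eIF4G, then brings that subunit to the capped end of an mRNA. The kinases that phosphorylate eIF2 slow its recycling by the exchange factor eIF2B, and the 4E-BP proteins hold eIF4E away from eIF4G.

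Total counts were 14217185 to 39652502 per library, and the initiation factor genes together took 1.18% to 1.46% of them. RBM3 was at 83.03 to 195 CPM, read counts scaled to library size, in the 3 PANC-1 libraries with RBM3 siRNA, against 426 to 567 CPM in the 3 with control siRNA. In MIA PaCa-2 it was at 37.4 to 61.9 CPM with RBM3 siRNA, against 207 to 277 CPM with control siRNA. By edgeR's quasi-likelihood test, with Benjamini-Hochberg adjustment over all genes tested, the log2 fold change was -1.93 in PANC-1 (SE 0.30, adjusted p = 0.516, and 1.51e-05 by DESeq2) and -2.35 in MIA PaCa-2 (SE 0.31, adjusted p = 0.0426). The MIA PaCa-2 call was lost in 10 of 12 removals of a library and in 4 of 10 other alternatives. Of 10 epithelial markers, EPCAM, CDH1, KRT7 and CLDN7 were under 1 CPM in every MIA PaCa-2 library, while KRT8 was at 802 to 1665 CPM there. All 10 reached 1 CPM in at least 1 PANC-1 library. The 7 leukocyte and endothelial markers summed to 1.53 to 2.87 CPM in PANC-1 libraries and 0.851 to 8.57 CPM in MIA PaCa-2 libraries.

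Replicate 3 of PANC-1 with RBM3 siRNA stood apart. The 4 MIA PaCa-2 marker transcripts COL1A2, ALDH1A1, UCA1 and SLC17A9 summed to 1222 CPM in it, against 0.507 to 4.02 CPM in the other 5 PANC-1 libraries, and 2200 to 3518 CPM in the MIA PaCa-2 libraries. The 5 PANC-1 marker transcripts FOXA2, MFSD1, SPART, DDX43 and B3GALNT1 summed to 158 CPM in it, against 274 to 329 CPM in the other 5. These lists come from earlier results of these data. Results on RBM3 siRNA in PANC-1 that lean on this library are given without it as well.

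Levels were compared between genes only per length, as TPM, scaled to length and library total, computed here from the counts and the exonic length of each gene in GENCODE 29. That length is the union of all annotated exons, whether or not they are expressed here, so ranks between genes depend on it. EIF3K, a peripheral eIF3 subunit, was at 1022 ± 224 TPM in PANC-1 with RBM3 siRNA and 1326 ± 99.3 TPM in PANC-1 with control siRNA (SD, n = 3 each), the highest mean of the members in both. In neither group did it differ beyond the spread from EIF4G2, at 989 ± 362 TPM with RBM3 siRNA and 1063 ± 167 TPM with control siRNA. In control replicate 1 EIF4G2 was slightly above it, at 1216 against 1211 TPM. With RBM3 siRNA and without replicate 3 EIF4G2 was first, at a mean of 1154 TPM against 1138 TPM for EIF3K. In MIA PaCa-2 it ranked 12 of 54, at 283 ± 33.5 TPM with RBM3 siRNA and 274 ± 19.8 TPM with control siRNA. The highest there was EIF5A, which encodes a hypusine-containing factor that acts when ribosomes stall, at 935 ± 332 and 1040 ± 237 TPM.

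EIF4G2, EIF5A and EIF3I followed EIF3K in PANC-1 with control siRNA, at 1063 ± 167, 921 ± 56.6 and 796 ± 3.78 TPM, so EIF4G2 and EIF5A did not differ beyond their spread. EIF2S3, EIF4H and EIF3I followed EIF5A in MIA PaCa-2 with control siRNA, at 883 ± 90.5, 801 ± 76.4 and 790 ± 29.3 TPM, again with overlapping spreads. In PANC-1, 31 members reached 100 TPM with RBM3 siRNA (30 without replicate 3) and 29 with control siRNA. In MIA PaCa-2 these counts were 28 and 29. The lowest members above 1 TPM were EIF2S3B in PANC-1, at 19.0 ± 4.84 TPM with RBM3 siRNA (16.2 TPM without replicate 3) and 16.1 ± 0.645 TPM with control siRNA, and the stress kinase gene EIF2AK3 in MIA PaCa-2, at 15.2 ± 5.76 and 13.1 ± 2.43 TPM.

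The other 5 rows did not pass the filter of the main fit. EIF4A1 and EIF4G1, which encode the main helicase and scaffold of eIF4F and are used by every cell, had 0 counts in all 12 libraries, as did EIF4EBP3. These zeros cannot be read as absence of the transcript. In GENCODE 29, 48.6% of the exonic bases of EIF4A1 lie in other genes as well, and AC016876.2 alone holds 41.1% of the exonic bases of EIF4A1. Of those of EIF4EBP3, 73.4% lie in the readthrough gene ANKHD1-EIF4EBP3. EIF4G1 shares 0% of its exonic bases and 0% of its 75-base stretches with another gene. The part of such sharing in the 0 counts of EIF4A1 and EIF4EBP3 was not tested. EIF4E1B, a cap-binding protein known from oocytes, had 0 to 2 reads per library. EIF4E3, another eIF4E relative, had 7, 15 and 12 reads in PANC-1 with RBM3 siRNA and 6, 5 and 5 with control siRNA, against 0, 2 and 1 reads in MIA PaCa-2 with RBM3 siRNA and 3, 0 and 0 with control siRNA. Every PANC-1 library thus held more EIF4E3 reads than every MIA PaCa-2 library. In edgeR's test without the filter, its log2 fold change, PANC-1 over MIA PaCa-2, was 2.69 under control siRNA (adjusted p = 0.0311). Under RBM3 siRNA it was 3.03 (adjusted p = 0.00915). Both values rest on these few reads, and EIF4E1B passed in neither contrast.

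The lines were compared first under control siRNA. By edgeR's test at an adjusted p of 0.05, 10 of 49 members were higher in PANC-1 and 14 were lower, or 49.0% of those tested. Of all 17862 genes tested, 50.8% passed, 26% higher and 24.8% lower, so the share of initiation factor genes that differed was near that of all genes. The median log2 fold change, PANC-1 over MIA PaCa-2, was -0.04 over the members and 0.00 over all genes. The libraries of the lines did not overlap for 14 members higher in PANC-1 and 16 lower, or 28.6% and 32.7%, against 31.4% and 30.1% of all genes. The members reached from -1.62 to 2.26. Their median size of change, regardless of sign, was 0.40, against 0.76 over all genes, which were not matched to the members for read number. In bulk RNA, fewer cells with a transcript and less of it per cell cannot be told apart.

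**Figure D1:**
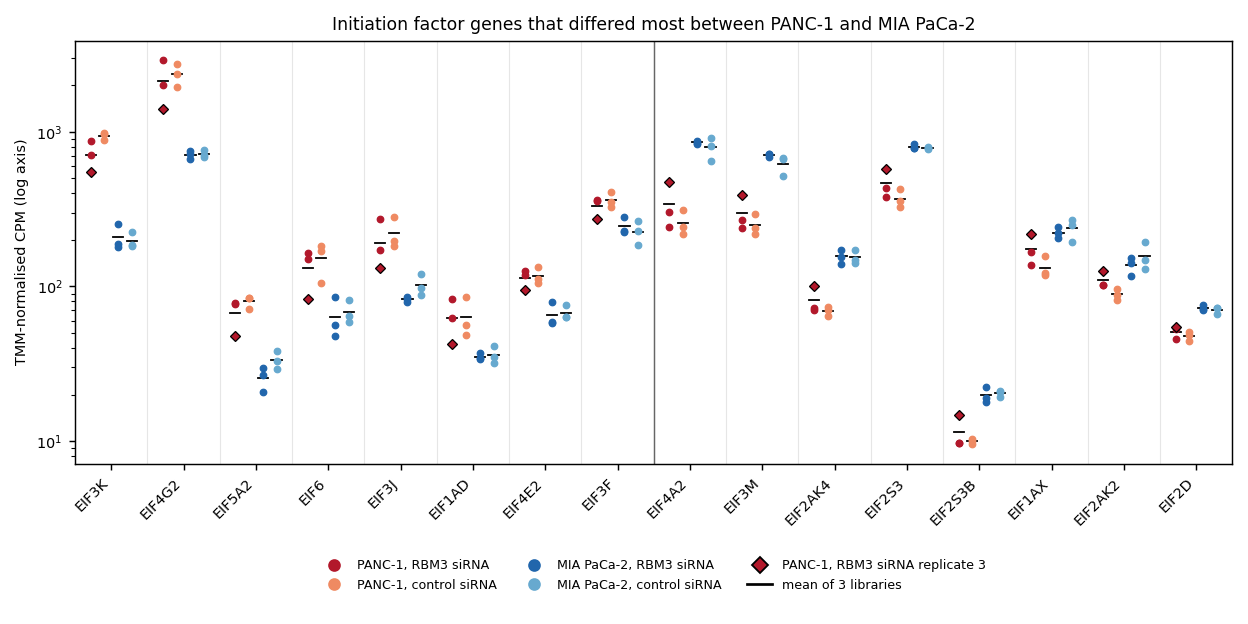
TMM-normalised CPM on a log axis, by library, for the 8 members most raised (left of the grey line) and the 8 most lowered (right) in PANC-1, by the control siRNA contrast of the lines. Points are libraries, black bars are means of 3, and diamonds mark PANC-1 with RBM3 siRNA replicate 3, which for each of the 16 genes lay on the MIA PaCa-2 side of the mean of the other 5 PANC-1 libraries.

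The strongest difference was in EIF3K (ENSG00000178982, chromosome 19), whose product sits with EIF3L at the edge of the eIF3 complex. It was at 885, 969 and 983 CPM in PANC-1 with control siRNA, against 183, 227 and 184 CPM in control-transfected MIA PaCa-2. With RBM3 siRNA it was at 867, 709 and 548 CPM in PANC-1, against 189, 180 and 253 CPM in MIA PaCa-2. All PANC-1 libraries were above all MIA PaCa-2 libraries. The log2 fold change was 2.26 (SE 0.20, adjusted p = 2.67e-06), which is 4.78-fold.

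Of the 14 eIF3 genes, 5 were higher in PANC-1, EIF3K among them, and 5 were lower, against 26% and 24.8% of all genes tested. The 5 lower ones include the near-identical copies EIF3C and EIF3CL. EIF3J, which encodes a loosely bound subunit that helps to place eIF3 on the ribosome, was at 282, 197 and 182 CPM in PANC-1, against 120, 97.1 and 88.6 CPM in MIA PaCa-2, all under control siRNA. EIF3F was at 409, 327 and 351 CPM in PANC-1, against 186, 264 and 228 CPM in MIA PaCa-2. For both genes the PANC-1 libraries lay above the MIA PaCa-2 libraries, by 1.11 (SE 0.25, adjusted p = 0.00297) and 0.68 (SE 0.18, adjusted p = 0.0066) on the log2 scale. The core subunit gene EIF3B, at 0.52, and EIF3H, at 0.40, also passed and were higher, in 19 and 17 of the 21 settings run.

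EIF3M (chromosome 11) fell the furthest of the eIF3 genes. Its product pairs with eIF3f and eIF3h in the octameric core. It was at 293, 218 and 239 CPM in PANC-1 with control siRNA, against 519, 668 and 674 CPM in control-transfected MIA PaCa-2. With RBM3 siRNA it was at 239, 271 and 391 CPM in PANC-1, against 716, 720 and 689 CPM in MIA PaCa-2. Every PANC-1 library was below every MIA PaCa-2 library, and the log2 fold change under control siRNA was -1.31 (SE 0.20, adjusted p = 0.000201).

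The other 4 lower eIF3 genes changed less. Their log2 fold changes were -0.54 for EIF3CL, -0.44 for EIF3L, -0.40 for EIF3C and -0.38 for EIF3D, which encodes a cap-binding subunit. The calls of EIF3CL and EIF3L held in 19 and 20 of the 21 settings run, and those of EIF3C and EIF3D in only 11 and 6. EIF3C and EIF3CL are near-identical copies, and 96.0% of the 75-base stretches of EIF3CL transcripts also occur in EIF3C, so their reads may be split either way. Of the exonic bases of EIF3L, 51.8% lie in other genes as well, most in AL022311.1, so its count is also uncertain. EIF3E, EIF3G and EIF3I, between -0.05 and 0.05, and EIF3A, at 0.60 (adjusted p = 0.0556), did not pass.

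**Figure D2:**
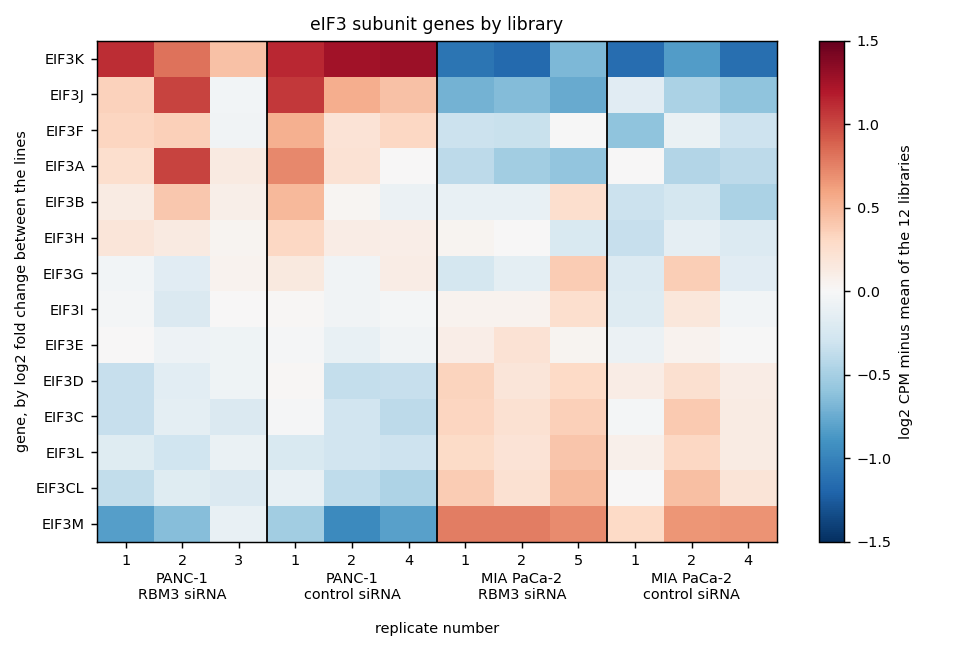
The 14 eIF3 subunit genes (rows, ordered by log2 fold change between the lines) in the 12 libraries (columns, in 4 groups of 3). Colour is log2 CPM minus the gene's mean over the 12 libraries. EIF3K and EIF3M run in opposite directions between the lines, and EIF3A and EIF3J are also high in PANC-1 with RBM3 siRNA replicate 2 and with control siRNA replicate 1.

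The eIF3 transcripts were therefore present in different proportions per length in the lines. Leaving out EIF3CL, the highest and lowest of 13 subunit genes under control siRNA were EIF3K at 1326 TPM and EIF3M at 132 TPM in PANC-1, 10.1-fold apart. In MIA PaCa-2 they were EIF3I at 790 TPM and EIF3F at 92.3 TPM, 8.55-fold apart. Both spans depend on the exonic lengths used, 2798 bp for EIF3K, 7428 bp for EIF3M, 1725 bp for EIF3I and 9431 bp for EIF3F. EIF3M, at 323 ± 22.2 TPM in MIA PaCa-2, was above EIF3F there. In PANC-1 EIF3M, at 132 ± 17.3 TPM, and EIF3F, at 150 ± 14.1 TPM, did not differ beyond their spread.

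Of the 6 genes of the eIF2 and initiator tRNA group, EIF2S3, EIF2S3B, EIF2D and EIF2S1 were lower in PANC-1, against 24.8% of all genes tested. EIF2S3 (X chromosome), whose product binds GTP and the initiator tRNA, was at 427, 329 and 354 CPM in PANC-1 with control siRNA, against 789, 798 and 773 CPM in control-transfected MIA PaCa-2. With RBM3 siRNA it was at 381, 434 and 575 CPM in PANC-1, against 832, 788 and 783 CPM in MIA PaCa-2. The groups did not overlap, and the log2 fold change under control siRNA was -1.09 (SE 0.16, adjusted p = 0.00021). The alpha subunit gene EIF2S1, which carries the phosphorylation site, was at -0.41 (SE 0.16, adjusted p = 0.0494), a call that held in only 5 of the 21 settings run, with an adjusted p of up to 0.18. The beta subunit gene EIF2S2 was at -0.06 (SE 0.16, adjusted p = 0.767).

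EIF2S3B, an intronless copy of EIF2S3, was at 10.4, 10.1 and 9.53 CPM in PANC-1 with control siRNA, against 21.1, 20.7 and 19.4 CPM in control-transfected MIA PaCa-2. Its log2 fold change was -1.03 (SE 0.21, adjusted p = 0.00175), close to that of EIF2S3. With control siRNA it held 2.65 ± 0.303% of the reads of the pair in PANC-1 and 2.52 ± 0.0791% in MIA PaCa-2 (SD, n = 3 each), and 17.9% of its 75-base stretches also occur in EIF2S3. Reads of EIF2S3 counted for its copy cannot be told apart from reads of the copy. EIF2D, a ribosome recycling and reinitiation factor, was at 44.4, 50.4 and 48.4 CPM in PANC-1, against 73.0, 72.6 and 66.1 CPM in MIA PaCa-2. The PANC-1 libraries were all lower, by a log2 fold change of -0.56 (SE 0.14, adjusted p = 0.00449). EIF2A, a separate tRNA-binding factor, was at 0.08 and did not pass.

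Of the 4 eIF2 kinase genes, 2 were lower in PANC-1, against 24.8% of all genes tested. EIF2AK4 encodes GCN2, which senses uncharged tRNA. It was at 64.6, 73.4 and 70.6 CPM in PANC-1 with control siRNA, against 149, 141 and 172 CPM in control-transfected MIA PaCa-2. The log2 fold change was -1.15 (SE 0.17, adjusted p = 0.000179). EIF2AK2 encodes PKR, the kinase that is activated by double-stranded RNA. It was at 81.8, 96.5 and 88.5 CPM in PANC-1, against 194, 129 and 148 CPM in MIA PaCa-2, and its log2 fold change was -0.82 (SE 0.18, adjusted p = 0.00234). For both kinases no library of one line overlapped the other under control siRNA. EIF2AK1, encoding the haem-regulated kinase, was at -0.23 (adjusted p = 0.196), and EIF2AK3, encoding the endoplasmic reticulum kinase PERK, was at 0.43 (adjusted p = 0.268). None of the 5 eIF2B genes passed, with log2 fold changes from -0.19 to 0.56.

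EIF1AX, which encodes the scanning factor eIF1A, was at 156, 118 and 122 CPM in PANC-1 with control siRNA, against 270, 248 and 193 CPM in control-transfected MIA PaCa-2. Its groups did not overlap, and the log2 fold change was -0.84 (SE 0.19, adjusted p = 0.00337). EIF1AD, which shares the eIF1A domain, was at 85.04, 48.2 and 56.7 CPM in PANC-1, against 32.1, 35.01 and 41.4 CPM in MIA PaCa-2. It was higher by 0.81 (SE 0.25, adjusted p = 0.0184), and this call was lost without control replicate 1 of PANC-1 (adjusted p = 0.0936) or of MIA PaCa-2 (adjusted p = 0.0577). EIF1, which monitors start codon choice, was at -0.01 and EIF1B at 0.19, and neither passed.

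In the eIF4 group, EIF4G2 and EIF4A2 differed in opposite directions. EIF4G2 (ENSG00000110321, chromosome 11) encodes DAP5, a relative of eIF4G that does not bind eIF4E. It was at 2747, 2349 and 1955 CPM in PANC-1 with control siRNA, against 712, 765 and 684 CPM in control-transfected MIA PaCa-2. With RBM3 siRNA it was at 2018, 2914 and 1412 CPM in PANC-1, against 721, 664 and 751 CPM in MIA PaCa-2. All PANC-1 libraries were above all MIA PaCa-2 libraries, and the log2 fold change under control siRNA was 1.71 (SE 0.22, adjusted p = 8.08e-05), or 3.26-fold.

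EIF4A2 (ENSG00000156976, chromosome 3) encodes a helicase close to eIF4A1. It was at 314, 218 and 241 CPM in PANC-1 with control siRNA, against 647, 815 and 916 CPM in control-transfected MIA PaCa-2. With RBM3 siRNA it was at 242, 304 and 476 CPM in PANC-1, against 850, 875 and 834 CPM in MIA PaCa-2. Each PANC-1 library was below each MIA PaCa-2 library, and the log2 fold change under control siRNA was -1.62 (SE 0.24, adjusted p = 0.000177). Of its exonic bases, 17.9% lie in other genes as well. Its share of all eIF4A reads cannot be given, since EIF4A1 was listed at 0.

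EIF4E2 encodes 4EHP, a cap-binding protein that represses translation. It was at 133, 106 and 112 CPM in PANC-1 with control siRNA, against 63.1, 76.0 and 63.1 CPM in control-transfected MIA PaCa-2. It was higher in every PANC-1 library, by 0.80 on the log2 scale (SE 0.18, adjusted p = 0.00269), and 24.2% of its exonic bases lie in other genes as well. EIF4E itself was at 0.27 (adjusted p = 0.156). EIF4E2 thus took 56.8 ± 0.858% of the reads of EIF4E and EIF4E2 in PANC-1 and 47.6 ± 1.34% in MIA PaCa-2 (SD, n = 3 each). EIF4H, a cofactor of the helicase, was lower by a log2 fold change of -0.49 (SE 0.17, adjusted p = 0.0314), a call that held in 17 of the 21 settings run. EIF4B, EIF4G3, EIF4A3 of the exon junction complex, EIF4EBP2 and EIF4ENIF1, which encodes the eIF4E transporter, did not pass, with log2 fold changes from -0.28 to 0.38.

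Of the factors that act late, EIF5A2 and EIF6 were higher in PANC-1. EIF5A2, the second eIF5A gene, was at 71.5, 84.3 and 84.8 CPM in PANC-1 with control siRNA, against 33.1, 29.5 and 38.3 CPM in control-transfected MIA PaCa-2. The groups were well apart, and the log2 fold change was 1.25 (SE 0.22, adjusted p = 0.000532). EIF5A2 held 10.9 ± 1.56% of the reads of EIF5A and EIF5A2 in PANC-1 and 4.51 ± 1.57% in MIA PaCa-2. EIF5A itself was at -0.21 (adjusted p = 0.559), and its near copy EIF5AL1 held 6.71 ± 0.832% and 6.45 ± 0.811% of the reads of those 2 genes.

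EIF6, which keeps free large ribosomal subunits from joining early, was at 183, 105 and 169 CPM in PANC-1 with control siRNA, against 64.6, 81.6 and 58.9 CPM in control-transfected MIA PaCa-2. All PANC-1 values were higher, by 1.16 on the log2 scale (SE 0.30, adjusted p = 0.00652). Of the exonic bases of EIF6, 17.4% lie in other genes as well. EIF5, the GTPase activator of eIF2, was at 0.27 (adjusted p = 0.497), and EIF5B, the subunit joining factor, at -0.09 (adjusted p = 0.71).

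**Figure D3:**
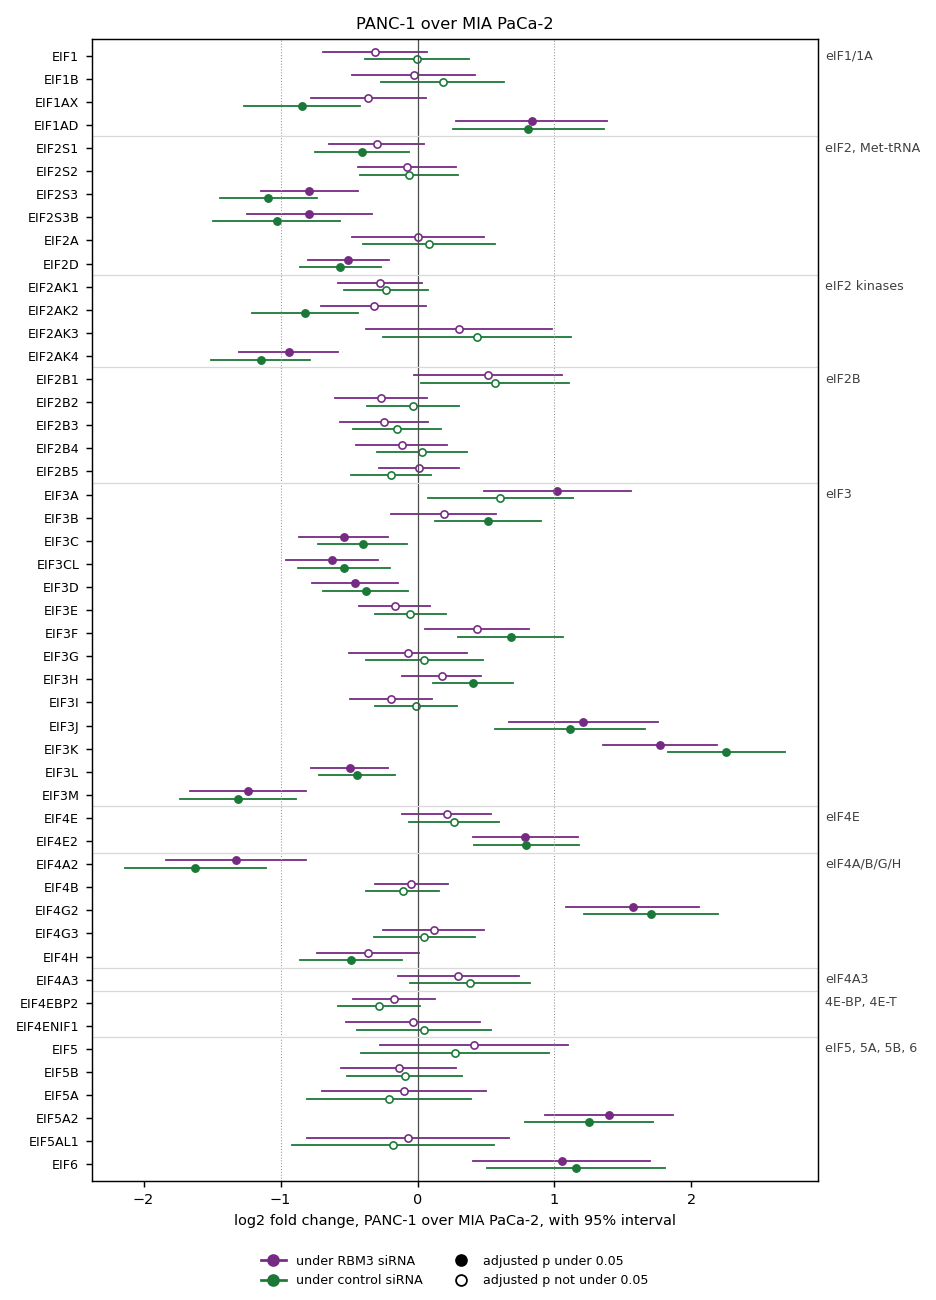
Log2 fold change, PANC-1 over MIA PaCa-2, with its approximate 95% interval for the 49 tested members, grouped by role, under RBM3 siRNA (upper point of each pair) and control siRNA (lower point). Filled points passed an adjusted p of 0.05, and dotted lines mark 2-fold. EIF3K and EIF4G2 lie beyond 2-fold on the right and EIF4A2 and EIF3M on the left in both.

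The RBM3 siRNA libraries gave the same comparison with group means from other libraries. The filter, scaling and spread came from the same fit of all 12 libraries, so the tests of both contrasts are not independent. Under RBM3 siRNA, 8 members were higher and 10 lower in PANC-1, against a background of 24.2% higher and 19.3% lower among all genes tested (43.6% in all). All 24 members called under control siRNA had the same sign under RBM3 siRNA, and 17 of them passed again. The share of all genes that passed again was not counted. EIF1AX, EIF2AK2, EIF2S1, EIF3B, EIF3F, EIF3H and EIF4H passed under control siRNA alone, and EIF3A passed under RBM3 siRNA alone. None of the differences between these contrasts passed a test of its own, as given below with the siRNA response.

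Without replicate 3 of PANC-1 with RBM3 siRNA, 24 members passed under control siRNA and 20 under RBM3 siRNA, all 20 of them in both, against 51.6% and 50.2% of all genes. Then EIF2AK2, EIF3B, EIF3H and EIF4H were called under control siRNA alone. EIF2S1 was no longer called in either contrast, and EIF3A was called in both. EIF3K was then at 1.92 (SE 0.17) under RBM3 siRNA, against 1.77 (SE 0.19) with the library included.

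For the line-called members, replicate 3 of PANC-1 with RBM3 siRNA lay on the MIA PaCa-2 side of the mean of the other 5 PANC-1 libraries in 24 of 24. In 18 of 24 it lay beyond all 5. For the 10 members at least 2-fold apart under control siRNA, it lay 33.6% to 81.1% of the way to the MIA PaCa-2 mean, with a median of 48.6%. On the same scale it lay 51.9% of the way for ALDH1A1 and 31.5% for COL1A2. The MIA PaCa-2 marker transcripts UCA1 and SLC17A9 are not given on this scale. The control libraries that picked the line-called members also enter the means of both lines used here. The same counts over all line-called genes were not made. The part of MIA PaCa-2 RNA in these values was not tested.

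**Figure D4:**
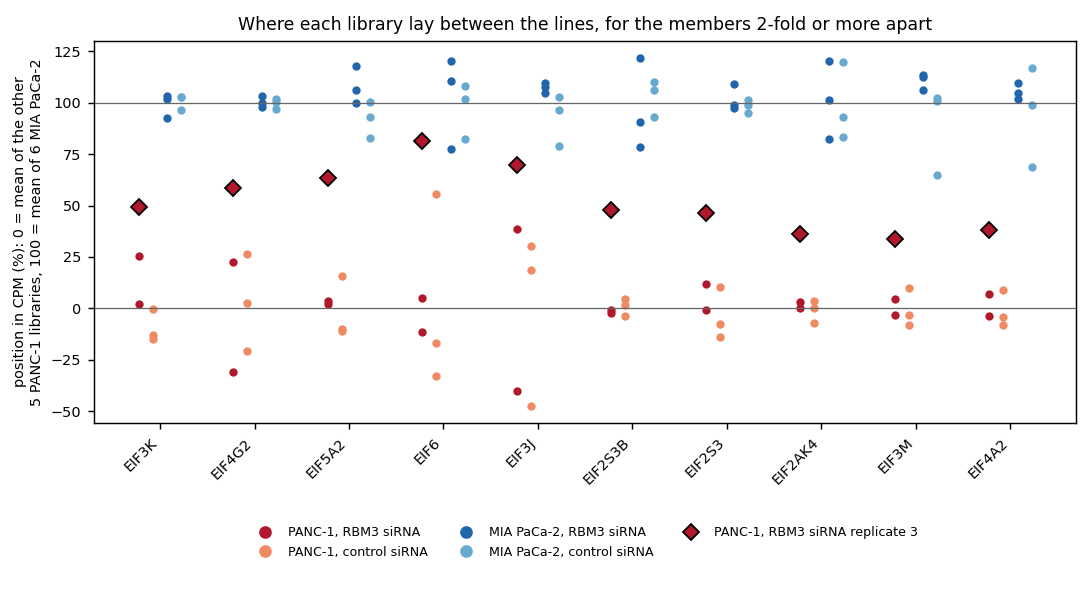
Position of each library in CPM for the 10 called members at least 2-fold apart, scaled so that 0% is the mean of the 5 other PANC-1 libraries and 100% the mean of the 6 MIA PaCa-2 libraries. The diamond, PANC-1 with RBM3 siRNA replicate 3, lies between 33.6% (EIF3M) and 81.1% (EIF6).

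The first bases of transcripts are shown for the members called between the lines that have a listed start with a pyrimidine run. Many mRNAs of the translation machinery begin with a 5′ terminal oligopyrimidine tract, a C followed by a run of pyrimidines, through which mTOR and LARP1 control their translation. RefSeq starts (GRCh38.p14) were examined for 46 members. Where a member had several listed starts, the one with the longest run from a C was kept. In the same way, any qualifying start counted for a gene of the background. Which start these cells use was not measured. A C at the start followed by at least 4 pyrimidines (C or T), read on the transcribed strand, was present in 10 of the 46, or 21.7%, against 5.14% of all 27305 genes in the same table. Those genes were not limited to protein-coding ones, as the members were. Of the 10 members, 2 were higher in PANC-1, 6 were lower and EIF2A and EIF4B did not pass. Over all 17862 genes tested, whatever their start, 26% were higher and 24.8% lower. EIF2S3 and its copy EIF2S3B, whose reads may be shared, are 2 of the 6. The median log2 fold change of the 10 was -0.47. Of the 31 other tested members with a start, 7 were higher and 6 lower, with a median of 0.03. The 8 called starts are given from 10 bases before the start to base 20 of the transcript, in capitals for the pyrimidine run, EIF3K and EIF3F being higher in PANC-1 and the others lower.
EIF3K (chr19:38619178-38619207, plus strand): tttccaccacCTCTTCCTgttcccgtcctt
EIF3F (chr11:7987327-7987356, plus strand): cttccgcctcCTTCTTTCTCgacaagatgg
EIF4A2 (chr3:186783567-186783596, plus strand): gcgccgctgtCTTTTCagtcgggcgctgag
EIF3M (chr11:32583821-32583850, plus strand): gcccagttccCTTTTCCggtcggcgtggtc
EIF2S3 (chrX:24054946-24054975, plus strand): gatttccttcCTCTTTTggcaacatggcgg
EIF2S3B (chr12:10505880-10505909, plus strand): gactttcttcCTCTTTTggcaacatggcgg
EIF2D (chr1:206612446-206612475, minus strand): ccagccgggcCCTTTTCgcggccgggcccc
EIF3D (chr22:36529147-36529176, minus strand): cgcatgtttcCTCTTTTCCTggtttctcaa

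All 20 transcript bases shown for EIF2S3B are the same as those of EIF2S3. The runs span 6 bases in EIF4A2 and 10 in EIF3F and EIF3D. EIF3K and EIF3M, which differed most in opposite directions within eIF3, both have a listed start with such a run. Its presence thus did not go with 1 direction. A match of these letters is a description and not a measured site.

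RBM3 siRNA was then set against control siRNA within each line. No member passed in PANC-1 or in MIA PaCa-2, by edgeR, DESeq2 or limma-voom. At an adjusted p of 0.05, these called 0%, 0.0168% and 0% of all genes tested in PANC-1, and 0.0112%, 0.0952% and 0.0056% in MIA PaCa-2. At an unadjusted p of 0.05 it gave 1 of 49 members in PANC-1, against 4.12% of all genes, and 0 of 49 in MIA PaCa-2, against 2.94%. The 95% intervals of all 49 members lay inside 2-fold either way in both lines, as did those of 58.6% of all genes in PANC-1 and 57.2% in MIA PaCa-2. They still did in PANC-1 without replicate 3 of the siRNA group, against 56.8% of all genes. The fewest reads of a tested member in a library were 145, for EIF2S3B. Intervals widen at few reads, and all genes were not matched to the members for read number. Log2 fold changes of the members ran from -0.42 to 0.40 in PANC-1, with a median of 0.05 (without replicate 3, from -0.28 to 0.32, with a median of 0.03), and from -0.38 to 0.37 in MIA PaCa-2, with a median of 0.04.

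**Figure D5:**
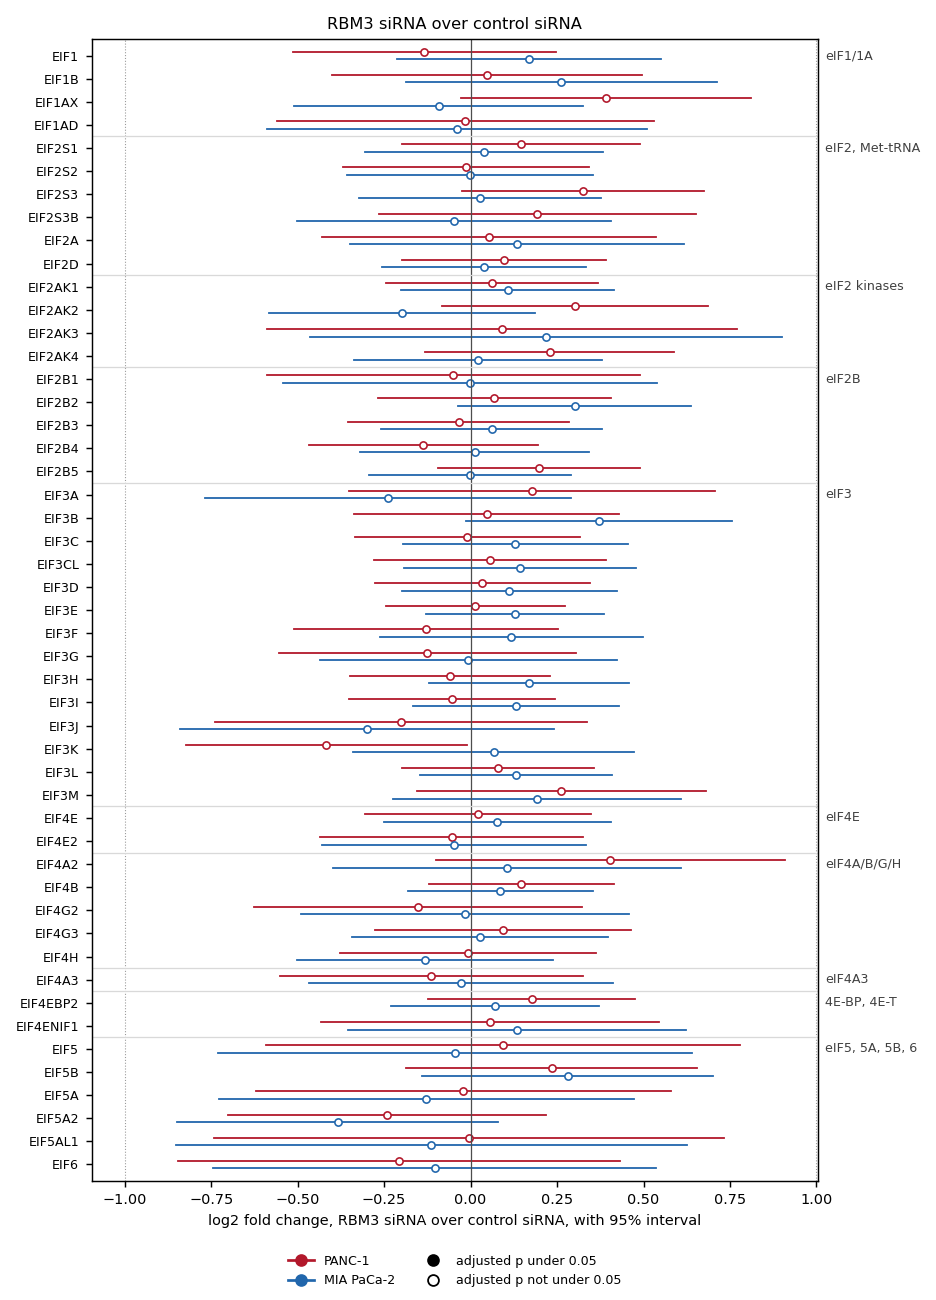
Log2 fold change, RBM3 siRNA over control siRNA, with its approximate 95% interval for the 49 tested members in PANC-1 (upper point of each pair) and MIA PaCa-2 (lower point), grouped by role. Open points did not pass an adjusted p of 0.05, which includes all points, and dotted lines at the edges mark 2-fold.

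In PANC-1 the smallest p belonged to EIF3K. It was at 867, 709 and 548 CPM with RBM3 siRNA, against 885, 969 and 983 CPM with control siRNA. The siRNA libraries were all below the control libraries, and replicate 3 was the lowest. The log2 fold change was -0.42 (SE 0.19, unadjusted p = 0.0451, adjusted p = 0.9997 by edgeR), and the two-sided exact permutation test gave p = 0.1, the smallest that 3 against 3 libraries allow. Without replicate 3 it was -0.28 (SE 0.17).

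The next 4 in PANC-1 were EIF1AX, EIF2S3, EIF4A2 and EIF2AK2, with log2 fold changes of 0.39, 0.32, 0.40 and 0.30. EIF1AX was at 138, 166 and 217 CPM with RBM3 siRNA, against 156, 118 and 122 CPM with control siRNA. EIF2AK2 was at 102, 102 and 125 CPM with RBM3 siRNA, against 81.8, 96.5 and 88.5 CPM with control siRNA. EIF2AK2 did not overlap between the groups, and the other 3 did. In each of the 4 genes replicate 3 was the highest siRNA library, and each of them was higher in MIA PaCa-2 than in PANC-1 under control siRNA. Without replicate 3 the values were 0.18 for EIF1AX, 0.13 for EIF2S3, 0.07 for EIF4A2 and 0.18 for EIF2AK2.

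In MIA PaCa-2 the smallest p belonged to EIF3B, at 510, 509 and 652 CPM with RBM3 siRNA, against 440, 456 and 395 CPM with control siRNA. The groups did not overlap, and the log2 fold change was 0.37 (SE 0.18, unadjusted p = 0.0568, adjusted p = 1 by edgeR, exact permutation p = 0.1). EIF2B2, a subunit gene of the exchange factor, was at 50.3, 44.1 and 43.6 CPM with RBM3 siRNA, against 33.0, 42.2 and 36.9 CPM with control siRNA. Its siRNA libraries were also all above its control libraries, with a log2 fold change of 0.30 (SE 0.16). EIF5A2 was at -0.38 (SE 0.21), EIF5B at 0.28 (SE 0.19) and EIF3H at 0.17 (SE 0.13), with overlapping groups.

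Groups that did not overlap were counted over all members. In PANC-1 they were EIF2AK2 and EIF2B5 higher, against 3.75% of all genes, and EIF3K and EIF2B4 lower, against 2.77%. Without replicate 3 they were the same 4 genes, against 6.68% higher and 5.71% lower. In MIA PaCa-2 they were EIF3B, EIF2B2 and EIF3M higher, against 4.41%, and EIF3J lower, against 3.63%. These are 4.08%, 4.08%, 6.12% and 2.04% of the 49 members. Within eIF3, 7 of 14 genes had a positive log2 fold change in PANC-1 and 11 of 14 in MIA PaCa-2, with medians of 0.00 and 0.13, and none passed. Without replicate 3 the PANC-1 values were 6 of 14 and -0.01. The responses of the 4 eIF2 kinase genes ran from 0.06 to 0.30 in PANC-1 (-0.01 to 0.27 without replicate 3) and from -0.20 to 0.22 in MIA PaCa-2.

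The difference of the responses, PANC-1 minus MIA PaCa-2, was tested in the same model and is also the difference between the line contrasts. It was called for 0 of 49 members by edgeR, DESeq2 and limma-voom, against 0%, 0.0168% and 0% of all genes. Unadjusted p-values under 0.05 numbered 0 of 49 members, against 2.98% of all genes. The 5 smallest p-values were those of EIF2AK2 at 0.50 (SE 0.25), EIF3K at -0.48 (SE 0.27), EIF1AX at 0.48 (SE 0.27), EIF2S3 at 0.30 (SE 0.23) and EIF3B at -0.33 (SE 0.25). Without replicate 3 of PANC-1 with RBM3 siRNA these were 0.38, -0.34, 0.28, 0.10 and -0.28, in the same order of genes. For 40 of the 49 members the 95% interval of the difference lay inside 2-fold, against 38% of all genes, and without replicate 3 for 44, against 37.9%. For the other 9 in the fit of all libraries a difference in response beyond 2-fold lies within the interval. Here too, all genes were not matched to the members for read number.

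Within each line, a pair of libraries of different siRNA groups moved together in many members. This was noticed after the values were seen. Replicate 2 of PANC-1 with RBM3 siRNA and control replicate 1 of PANC-1 were the highest 2 of the 6 PANC-1 libraries in 20 of 49 members, or 40.8%, against 19.7% of all genes tested. They were the lowest 2 in EIF2AK1 and EIF2D, or 4.08% of members, against 21.0% of all genes. Without replicate 3 they were the highest 2 of 5 in 26 members, or 53.1%, against 25.3% of all genes, and the lowest 2 in 3, or 6.12%, against 27.3%. EIF5 showed it most plainly, at 405 CPM in that siRNA library and 363 CPM in that control library, against 176 to 225 CPM in the other 4 PANC-1 libraries. EIF3A was at 1019 and 833 CPM in them, and at 599.6 CPM or less in the others.

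In MIA PaCa-2 the pair was RBM3 siRNA replicate 5 and control replicate 2, the highest 2 of 6 in 15 of 49 members, or 30.6%, against 17.3% of all genes. They were the lowest 2 in 5 members, or 10.2%, against 17.2%. EIF5A was at 1021 CPM in that siRNA library and 1036 CPM in that control library, and at 430 to 644 CPM in the other 4 MIA PaCa-2 libraries. EIF3G was at 198 and 197 CPM in them and at 127 to 137 CPM in the others. Each pair holds 1 library of each siRNA group.

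Genes of the pathway that are not initiation factors were described from lists. No gene of any list passed in the siRNA comparison of PANC-1 or of MIA PaCa-2. Between the lines under control siRNA, where 26% of all genes were higher and 24.8% lower, no pathway list of 9 or more genes had a share of calls above the 50.8% of all genes. The 16 tested genes of the mTOR arm gave MLST8, a subunit of the mTOR complexes, and the eIF4E kinase gene MKNK1 higher in PANC-1, and PDCD4 and MKNK2 lower. PDCD4, whose product inhibits eIF4A, was at 38.4, 47.9 and 45.2 CPM in PANC-1, against 130, 163 and 146 CPM in MIA PaCa-2. All PANC-1 libraries were lower, with a log2 fold change of -1.74 (SE 0.35, adjusted p = 0.00135). MLST8 was at 1.13 (SE 0.23, adjusted p = 0.00145).

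Of the 10 genes of the eIF2 phosphatase, GCN2 and ATF4 arm, IMPACT, which encodes an inhibitor of GCN2, and the phosphatase gene PPP1CC were lower in PANC-1, at -0.62 (SE 0.16) and -0.39 (SE 0.14). IMPACT thus went the same way as the GCN2 gene EIF2AK4. Of 9 accessory factors, ABCF1, MCTS1 and DDX3X were higher, at 0.87, 0.73 and 0.64, and BZW2, which encodes an eIF5 mimic, was lower at -0.42. Of 10 elongation and release factors none was higher and 4 were lower, EEF2 at -1.52 (SE 0.24, adjusted p = 0.000299), GSPT2 at -1.01, EEF1A2 at -0.52 and EEF2K at -0.42. The hypusine enzyme genes that modify eIF5A did not pass, DOHH being at 0.84 (adjusted p = 0.053) and DHPS at -0.06 (adjusted p = 0.788).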

How the data were processed

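The authors deposited raw read counts per Ensembl gene identifier, not normalised, in 1 table of all 12 libraries. Per the submitters' processing notes, STAR 2.5.2a, Picard, featureCounts and Subread were used with build hg19/GRCh37. The sources used here do not name the annotation, strand setting or duplicate handling, so reads of overlapping genes cannot be told apart. A gene name table matched 52181 of 63677 rows and gave 39699 symbols. GENCODE 29 is of another build and served only for gene type, length and shared bases.

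Counts were fitted with edgeR 4.0.16 in R 4.3.3 (TMM, filterByExpr, 17862 genes, quasi-likelihood F-test, two-sided) as 4 group means over all 12 libraries, with 8 residual degrees of freedom and Benjamini-Hochberg adjustment at 0.05. Each SE was derived from the F statistic, as the size of the log2 change over its square root, and gave the intervals. CPM are TMM-normalised. The script was tested on simulated data. The labels do not tie replicates to separate cultures, so the p-values reflect only how far these libraries scatter, and that scatter may be technical. Chi-square per degree of freedom between replicates was 10.6 to 164, so no library was a copy. Depth limits precision to a floor of 3 counts, 0.0757 to 0.211 CPM.

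Members and lists were chosen with earlier results of these data known. Named were the 5 members with the smallest p in each siRNA comparison and in the difference, the 8 with the largest change in each direction between the lines at 2 CPM or more, eIF2 subunits and kinases, gene pairs, and 2 genes per pathway list. Others were named after their values were seen. Transcript starts on chromosome 8 were not used here. Alternatives were DESeq2 1.42.0, limma-voom 3.58.1, other scalings and filters, a replicate block, total count as a covariate, each line alone and the removal of each library. DESeq2 without PANC-1 RBM3 siRNA replicate 3 was added after seeing the data.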

Additional observations from a re-analysis of the deposited data

How the results depend on the processing

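No member passed in either siRNA comparison or in their difference under any alternative run, including the removal of each library in turn. Of the 24 members called between the lines under control siRNA, all kept their sign in the 21 settings run, and 15 were called in each, all but EIF1AD of the 16 named. The settings reuse the libraries that picked these members, so kept signs and calls are no separate support. How many of all line-called genes kept theirs was not counted. With 1 library left out, members higher in PANC-1 under control siRNA numbered 7 to 11 (10 with all) and lower ones 9 to 14 (14 with all). The 9 came without MIA PaCa-2 control replicate 2 and without PANC-1 control replicate 4. Calls over all genes, in either direction, fell there as well, to 8158 of 18500 and 7848 of 18466, against 9080 of 17862 with all libraries. Under RBM3 siRNA the ranges were 6 to 10 higher and 7 to 11 lower. Calls over all genes, in either direction, then ran from 5463 of 18375 to 9243 of 18422, against 7781 of 17862 with all libraries. Deviations of same-numbered libraries correlated at 0.014 and -0.046 in MIA PaCa-2 and at -0.40 and -0.33 in PANC-1. So few pairs cannot show whether same-numbered libraries share a culture or batch. With the replicate block the lower calls under RBM3 siRNA were 5, against 10 without it, and those under control siRNA were 10, against 14. In either direction, 15 of 49 members were called under RBM3 siRNA, against 18 without the block. Of 17862 genes, 7640 were called there, against 7781. Under control siRNA these counts were 21 against 24 members and 8652 against 9080 genes. Lower calls over all genes were not counted with the block. Under RBM3 siRNA, EIF3F passed by DESeq2 (adjusted p = 0.0465) and not by edgeR (adjusted p = 0.0626). Dividing by gene length moved the shares of gene pairs, for EIF5A2 to 5.79% in PANC-1 and 2.33% in MIA PaCa-2 and for EIF4E2 to 72.0% and 64.0% under control siRNA, with the order between the lines kept. The lengths divided by were 2815 bp for EIF5A and 5593 bp for EIF5A2, and 14067 bp for EIF4E and 7177 bp for EIF4E2, which sets these shifts. The cause of the other shifts between settings was not tested. Few reads limit EIF4E1B and EIF4E3, which had at most 2 and 15 in a library.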
